A study of Homo sapiens with 6 samples.

Results

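Radial glia are the neural stem cells of the developing cortex. Their cell bodies line the ventricle, their long fibres reach from its surface to the pial surface, and they divide to give intermediate progenitors, neurons and later glia. Outer radial glia have left the ventricle for the outer subventricular zone, keep the basal fibre and depend on signalling of the leukaemia inhibitory factor (LIF) family through STAT3. The values below are those of 31 genes that mark these cells, found by symbol in the deposited table. All 31 were present among its 18056 genes, and all 31 passed the filter on low counts (13842 genes tested). Of them, 5 mark outer radial glia (HOPX, TNC, LIFR, FAM107A and MOXD1) and 26 are general radial glia genes. Several of the 31, such as SLC1A3, SOX9, VIM and FABP7, are also expressed by astrocytes, and in bulk RNA fewer cells of a type and less RNA per cell cannot be told apart.

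The organoids were grown from DYR0100, an established human induced pluripotent stem cell line of wild-type genotype, with a dorsal forebrain protocol. Their age is not given in the sources used here. The vehicle group holds 3 libraries, and the Aβ42 group holds 3 libraries from organoids given 5 µM Aβ42, the aggregation-prone amyloid-β peptide. Either treatment lasted 6 days, all libraries carry the same batch label, and the series text calls the replicates independent and biological. All come from 1 cell line. Depth was 16465390 to 16742958 estimated counts a library.

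EMX1, a dorsal forebrain transcription factor, was at 33.99 to 35.2 CPM in vehicle and 34.6 to 42.4 CPM with Aβ42 (CPM, TMM-normalised counts per 1e+06), and NKX2-1, a ventral forebrain factor, had 0 counts in 5 libraries and 1 count in the other. Aβ42 replicate 2 stood apart from its group: its mean correlation across genes was 0.990 with the other Aβ42 libraries and 0.993 with the vehicle libraries.

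No gene of the 31 passed an adjusted p of 0.05 in edgeR's quasi-likelihood test, where 0% of all tested genes passed (0 of 13842). At an unadjusted p under 0.05 there were 13 of 31, beside 23.9% of all genes: 3 were higher with Aβ42 (12.4% of all genes) and 10 lower (11.5% of all genes). On the log2(TPM + 1) scale, which lowers the median of all genes to -0.04, the 12 members at that level were 0 higher and 12 lower. The libraries of both groups did not overlap for 8 of 31, 3 higher and 5 lower, beside 27.0% of all genes (13.6% higher, 13.4% lower), so that this share was near the background. The DESeq2 Wald test, run as an alternative, called 2 of 31 (HOPX and ZFHX4, both lower) and 814 genes in all (5.88%). With the replicate number as a block in edgeR, a pairing that the labels do not state, 8 of 31 passed, beside 14.2% of all genes. They were HMGA2, higher (1 of 31, beside 7.12% of all genes), and HOPX, ADGRV1, LIX1, SLC1A3, ZFHX4, NES and PDGFD, lower (7 of 31, beside 7.05%). Among the fits that each left out 1 library without the block, members passed only without Aβ42 replicate 2. There 13 of 31 did (1 higher, 12 lower), beside 23.1% of all genes.

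The median log2 fold change (Aβ42 over vehicle) was -0.07 for the 26 general genes and -0.01 for the 5 outer genes, against 0.0032 for all tested genes. These medians lay closer to each other than the spread of either between libraries (SD 0.06 and 0.08). That spread is not the error of their difference, and whether general and outer genes differ was not tested. The middle outer gene was LIFR. The outer median was above 0 without vehicle replicate 3 (0.01), without Aβ42 replicate 3 (0.04) and after a correction for gene length (0.04). The same held under upper-quartile scaling and with the replicate block and length correction together. The outer genes ranged from -0.45 for HOPX to 0.16 for FAM107A.

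**Figure D1:**
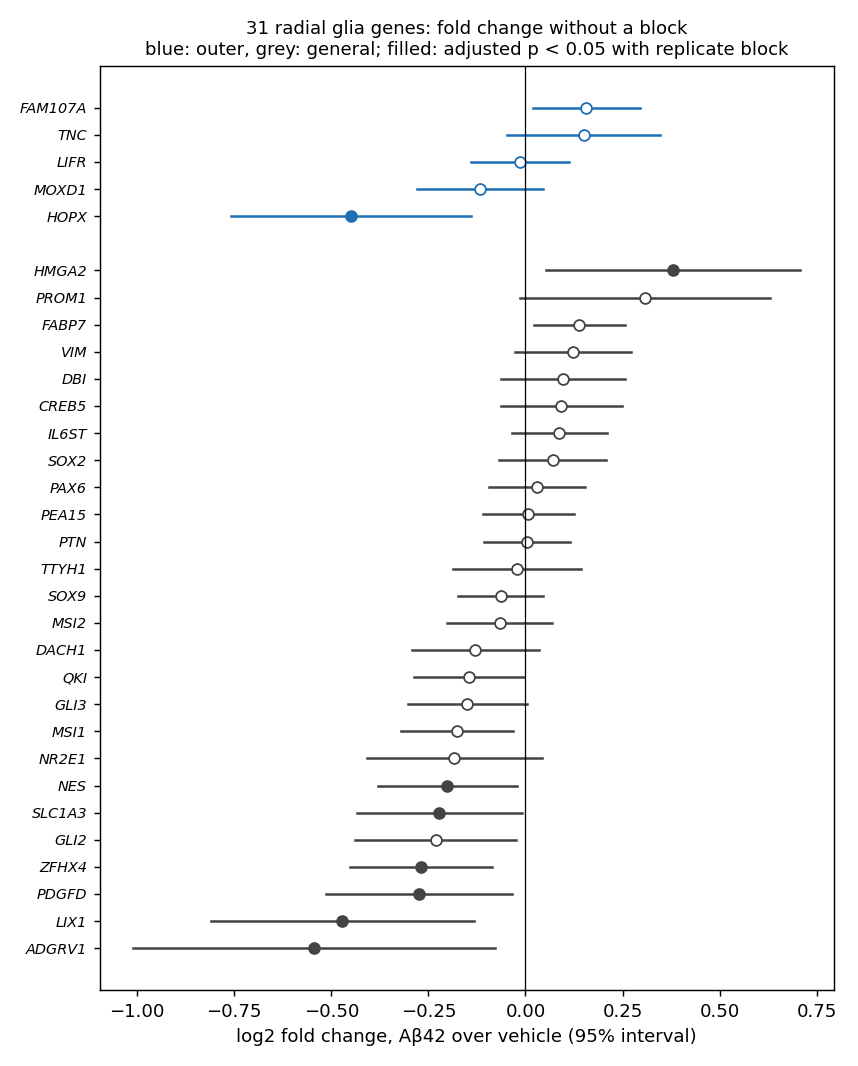
Log2 fold change of Aβ42 over vehicle (x axis) with its 95% interval for each of the 31 radial glia genes, outer genes in blue and general genes in grey. HOPX stands lowest of the 5 outer genes at -0.45, the general genes run from -0.54 for ADGRV1 to 0.38 for HMGA2, and filled points are the 8 genes that pass with the replicate block.

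Levels in vehicle are compared between genes in TPM, which corrects for length. FABP7, a fatty acid binding protein of radial glia, was the most abundant member at 5151 TPM (mean of vehicle), above 99.9% of tested genes. VIM, an intermediate filament protein, followed at 1735 TPM, PTN, a secreted growth factor, at 1049 TPM, and PEA15, a regulator of ERK signalling, at 993 TPM. MOXD1 was at 182 TPM, HOPX at 179.7 TPM, FAM107A at 169 TPM, TNC at 114 TPM and LIFR at 90.2 TPM, so that the outer genes lay between the most and the least abundant members. HMGA2, LIX1 and PROM1 were the lowest at 8.33, 8.32 and 3.51 TPM. The summed level of the 5 outer genes was 709 to 781 TPM in vehicle and 632 to 732 TPM with Aβ42. That of all 31 genes was 11494 to 12009 TPM and 11535 to 12009 TPM, a sum of which FABP7 is the largest term, and both sums overlapped between groups.

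Among the outer genes, HOPX (Entrez gene ID 84525), a small homeodomain protein that does not bind DNA itself, was at 55.3, 66.03 and 63.5 CPM in vehicle and at 35.6, 51.7 and 47.9 CPM with Aβ42. Every Aβ42 library was below every vehicle library, with Aβ42 replicate 1 the lowest. The log2 fold change was -0.45 ± 0.13 (SE), from 61.6 ± 5.59 to 45.1 ± 8.43 CPM (mean ± SD, n = 3 each), with an adjusted p of 0.114 by edgeR. With the replicate block the adjusted p was 0.000503, by the DESeq2 Wald test 0.00697 and without Aβ42 replicate 2 0.0328.

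FAM107A (11170), an actin-associated protein, was at 199, 168 and 196 CPM in vehicle and at 207, 214 and 207 CPM with Aβ42. All Aβ42 values were above all vehicle values. Its log2 fold change was 0.16 ± 0.06 with an adjusted p of 0.166, and 0.0823 with the block. The log2 ratio of HOPX to FAM107A, which no library scaling can alter, was -1.85, -1.35 and -1.62 in vehicle, and -2.54, -2.05 and -2.11 in the Aβ42 group. HOPX was also lower relative to each of the other 3 outer genes with no overlap between groups, and its log2 ratio to MOXD1, the one with the least gap, ranged over -1.80 to -1.51 in vehicle and -2.25 to -1.86 with Aβ42. These ratios were chosen after the values were seen and have no test.

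TNC (3371), an extracellular matrix glycoprotein of the stem cell niche, was at 325, 288 and 348 CPM in vehicle and at 314, 368 and 383 CPM with Aβ42. Its groups overlapped, with a log2 fold change of 0.15 ± 0.09 (adjusted p 0.321). MOXD1 (26002), a monooxygenase-like protein, was at 190.3, 188 and 220.5 CPM in vehicle and at 169, 188 and 196 CPM with Aβ42, with overlap and a log2 fold change of -0.12 ± 0.07 (adjusted p 0.354). LIFR (3977), the receptor that binds LIF, was at 358, 368 and 383 CPM in vehicle and at 366, 392 and 341 CPM with Aβ42. Aβ42 replicates 2 and 3 were its highest and lowest libraries, and its log2 fold change was -0.01 ± 0.06 (adjusted p 0.908). The 95% intervals were -0.14 to 0.11 for LIFR, -0.05 to 0.35 for TNC, -0.28 to 0.05 for MOXD1 and -0.76 to -0.14 for HOPX.

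**Figure D2:**
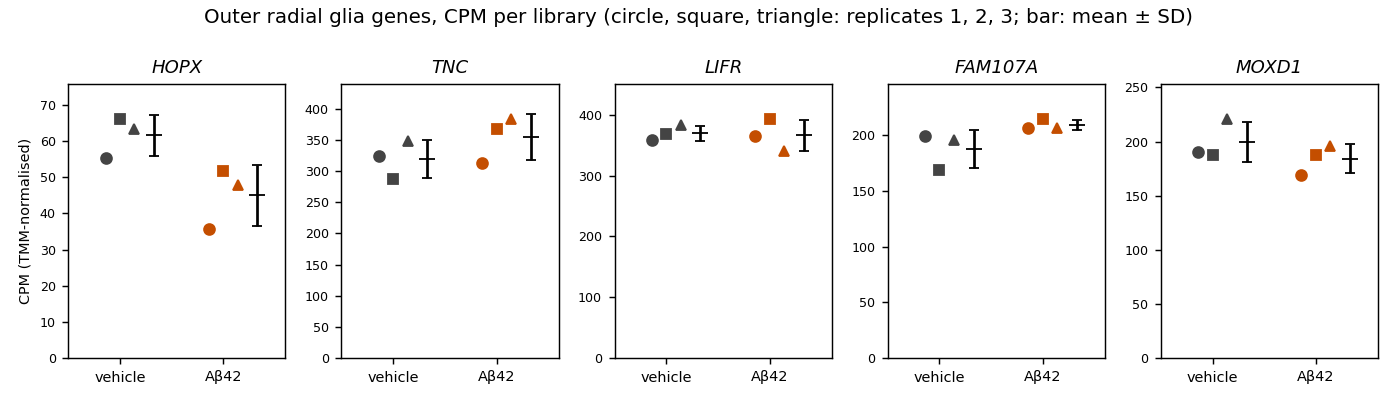
CPM per library (y axis, from 0) of the 5 outer radial glia genes in vehicle (grey) and Aβ42 (orange) organoids, with mean ± SD of 3 libraries. HOPX is lower in all 3 Aβ42 libraries, FAM107A is higher in all 3, and TNC, LIFR and MOXD1 overlap.

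LIFR acts with the shared receptor chain gp130, the product of IL6ST (3572). IL6ST was at 81.3, 79.3 and 85.7 CPM in vehicle and at 91.5, 82.9 and 87.3 CPM with Aβ42, with overlap and a log2 fold change of 0.09 ± 0.06 (adjusted p 0.358). Of 19 further genes of this pathway 13 were tested. None passed over all genes, and the median log2 fold change of the 13 was 0.06. At an unadjusted p under 0.05 there were 2 higher and 0 lower, beside 12.4% and 11.5% of all genes. Among the higher genes JAK1, a kinase bound to gp130, had a log2 fold change of 0.15 ± 0.06 with an adjusted p of 0.186. The negative genes with the smallest p were the ligand CNTF (-0.62 ± 0.33, adjusted p 0.271) and the kinase JAK2 (-0.13 ± 0.07, adjusted p 0.289). STAT3 itself was at 106 to 109.7 CPM in vehicle and 109.6 to 113 CPM with Aβ42, with a log2 fold change of 0.05 ± 0.05 (adjusted p 0.483). The ligand LIF had 13 to 27 counts a library and the feedback inhibitor SOCS3 had 15 to 28, which leaves wide errors (SE 0.32 and 0.30), and IL6 had 0 in all 6 libraries, a count that allows up to 3.

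The sequence bound by STAT factors has the letters TTCNNNGAA, the same on both strands. The set of RefSeq transcription starts used here (GRCh38.p14) held 50 for 24 of the 31 genes. It had no entry for SOX9, GLI3, HMGA2, LIX1, MSI1, ZFHX4 and QKI, which were not searched. The 250 bases before the start held these letters at 5 of the 50, beside 6.57% of the 35116 starts in the set. These starts belong to LIFR (2 of its 3), PAX6, SLC1A3 and GLI2 (1 each). The letters TGGGTGGTC, bound by GLI factors, and CGTGGGAA, bound by the Notch effector RBPJ, were found at 0 of the 50 on either strand, beside 0.199% and 0.72% of all starts. The windows of LIFR and SLC1A3 are shown because LIFR is the pathway's receptor and SLC1A3 is the gene with a match that passed with the block. Both LIFR windows are on the minus strand, at chr5:38557468-38557717 (start A) and chr5:38595406-38595655 (start B), and that of SLC1A3 is on the plus strand at chr5:36596338-36596587. All are printed 5′ to 3′ with the matched letters in capitals.
LIFR start A: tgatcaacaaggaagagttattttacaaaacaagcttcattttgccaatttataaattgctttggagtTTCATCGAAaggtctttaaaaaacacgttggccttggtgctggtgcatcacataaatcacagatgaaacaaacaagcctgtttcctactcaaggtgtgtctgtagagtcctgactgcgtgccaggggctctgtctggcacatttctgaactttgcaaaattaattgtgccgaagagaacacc
LIFR start B: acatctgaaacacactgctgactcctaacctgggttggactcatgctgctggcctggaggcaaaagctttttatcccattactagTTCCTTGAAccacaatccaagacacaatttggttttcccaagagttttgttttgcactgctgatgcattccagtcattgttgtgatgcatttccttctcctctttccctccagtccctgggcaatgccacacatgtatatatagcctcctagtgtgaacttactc
SLC1A3: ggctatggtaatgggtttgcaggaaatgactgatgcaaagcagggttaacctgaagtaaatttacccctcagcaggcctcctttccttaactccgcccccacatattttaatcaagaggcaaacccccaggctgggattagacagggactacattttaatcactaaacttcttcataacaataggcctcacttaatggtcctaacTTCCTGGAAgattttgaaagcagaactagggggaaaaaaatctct
The matches begin 182, 165 and 45 bases before the start. A match describes the sequence only, and which start these organoids use was not measured.

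Of the 10 transcription factors among the members, SOX2, PAX6, CREB5 and HMGA2 had positive and 6 had negative log2 fold changes, with a median of -0.10. SOX2 (6657), which maintains neural stem cells, was at 126, 119 and 128 CPM in vehicle and at 131, 142 and 120.1 CPM with Aβ42 (95% interval -0.07 to 0.21). PAX6 (5080), the dorsal cortical progenitor factor, was at 102, 99.3 and 113 CPM in vehicle and at 108, 108 and 104 CPM with Aβ42 (interval -0.10 to 0.15). SOX9 (6662), a stem cell and glial factor, was at 101 to 106 CPM in vehicle and 94.2 to 101 CPM with Aβ42 (interval -0.17 to 0.05). For these defining factors the groups overlapped and the intervals included 0.

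HMGA2 (8091), a chromatin protein of early, self-renewing neural stem cells, was at 15.3, 10.7 and 12.3 CPM in vehicle and at 19.4, 15.8 and 14.6 CPM with Aβ42. The groups overlapped through vehicle replicate 1, and each Aβ42 library was above the vehicle library of its own number. The log2 fold change of 0.38 ± 0.15 had an adjusted p of 0.159 without and 0.0168 with the block. ZFHX4 (79776), a large zinc finger homeodomain protein, was at 116, 127 and 131 CPM in vehicle and at 98.4, 117 and 94.5 CPM with Aβ42, and only Aβ42 replicate 2 reached the vehicle range. Its log2 fold change was -0.27 ± 0.08 (adjusted p 0.108, and 0.0114 with the block). NR2E1 (TLX), a receptor that keeps neural stem cells dividing, had -0.18 ± 0.10, DACH1 had -0.13 ± 0.07 and CREB5 had 0.09 ± 0.07, all with overlap and adjusted p-values of 0.294, 0.309 and 0.436.

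GLI2 (2736) and GLI3 (2737) carry the hedgehog signal to target genes, GLI2 chiefly as an activator and GLI3 chiefly as a repressor in dorsal forebrain. GLI2 was at 27.8, 28.3 and 28.7 CPM in vehicle and at 23.4, 27.6 and 21.2 CPM with Aβ42. The vehicle values were close to each other, and Aβ42 replicate 2 lay just under them (log2 fold change -0.23 ± 0.09, adjusted p 0.17, and 0.0701 with the block). GLI3 was at 190.5, 198 and 217 CPM in vehicle and at 177, 199 and 169 CPM with Aβ42, with overlap and a log2 fold change of -0.15 ± 0.07 (adjusted p 0.217). Of 16 further hedgehog pathway genes 11 were tested, and none passed over all genes. The median of the 11 was -0.05. At an unadjusted p under 0.05 there was 1 higher and 0 lower, beside 12.4% and 11.5% of all genes. The higher one was CDON, a co-receptor, at 164, 141 and 159 CPM in vehicle and at 188, 166 and 170.2 CPM with Aβ42, where the groups did not overlap (0.18 ± 0.07, adjusted p 0.154, and 0.0289 with the block). The next smallest p among positive genes belonged to PRKACA (0.02 ± 0.06), and among negative ones to the co-receptor BOC (-0.23 ± 0.10) and the inhibitor SUFU (-0.12 ± 0.06). GLI1, itself a target of the pathway, was below the filter on low counts and had 8, 6 and 8 counts in vehicle and 2, 2 and 2 with Aβ42. It was singled out after its values were seen and has no test.

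The 3 RNA-binding proteins had negative log2 fold changes, with none past the threshold. MSI1 (4440), Musashi-1, a translational regulator of neural stem cells, was at 50.9, 54.9 and 50.98 CPM in vehicle and at 44.5, 49.6 and 44.7 CPM with Aβ42. All Aβ42 values were below all vehicle values (-0.18 ± 0.07, adjusted p 0.145, and 0.0677 with the block). QKI (9444), a splicing regulator of glia and progenitors, was at 559, 593 and 583 CPM in vehicle and at 508, 578 and 482 CPM with Aβ42, and Aβ42 replicate 2 lay in the vehicle range (-0.15 ± 0.06, adjusted p 0.204). MSI2, the paralog of MSI1, had -0.07 ± 0.06 with overlap.

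Among filament, lipid and transport proteins, NES (10763), nestin, was at 102, 113 and 100.3 CPM in vehicle and at 82.6, 102 and 88.7 CPM with Aβ42. SLC1A3 (6507), the glial glutamate transporter GLAST, was at 718, 803 and 765 CPM in vehicle and at 572, 753 and 635 CPM with Aβ42. In both genes Aβ42 replicate 2 alone lay in the vehicle range. The log2 fold change of NES was -0.20 ± 0.08 (adjusted p 0.168, and 0.0208 with the block). That of SLC1A3 was -0.22 ± 0.09 (adjusted p 0.195, and 0.00919 with the block). FABP7 (2173) had the opposite sign, at 975, 1022 and 1040.2 CPM in vehicle and at 1113, 1052 and 1179 CPM with Aβ42. Its groups did not overlap in CPM (0.14 ± 0.05, adjusted p 0.155, and 0.0755 with the block). In TPM they did overlap, at 4888, 5226 and 5338 in vehicle and 5402, 5180 and 5661 with Aβ42. The log2 fold change of FABP7 was 0.07 on the log2(TPM + 1) scale and 0.08 after the length correction. VIM was at 1006 to 1229.8 CPM in vehicle and 1184 to 1237 CPM with Aβ42, with 0.12 ± 0.07 and an adjusted p of 0.289. DBI, an acyl-CoA binding protein, had 0.10 ± 0.07 with overlap.

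ADGRV1 (84059), a very large adhesion receptor, had the lowest log2 fold change of the 31. It was at 127, 177 and 141 CPM in vehicle and at 93.3, 126 and 86.4 CPM with Aβ42. The groups were narrowly separate, and replicate 2 was the highest library of each. The log2 fold change was -0.54 ± 0.19 with an adjusted p of 0.164, and 4.68e-05 with the block. LIX1 (167410), a gene of early forebrain progenitors, was at 10.5, 11.98 and 12.99 CPM in vehicle and at 6.83, 10.5 and 8.28 CPM with Aβ42. Its groups were nearly equal at their edges, with 112 to 213 counts a library behind these values (-0.47 ± 0.15, adjusted p 0.115, and 0.0153 with the block).

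Of the secreted factors, PDGFD (80310), a platelet-derived growth factor made by human radial glia, was at 39.8, 44.3 and 45.4 CPM in vehicle and at 33.1, 42.3 and 31.5 CPM with Aβ42. Aβ42 replicate 2 lay in the vehicle range (-0.27 ± 0.11, adjusted p 0.163, and 0.0317 with the block). Its receptor PDGFRB was at 17.5, 17.3 and 17.3 CPM in vehicle and at 18.95, 18.9 and 20.9 CPM with Aβ42, without overlap and with the opposite sign (0.18 ± 0.08, adjusted p 0.212). PTN (5764) was at 498, 481 and 516 CPM in vehicle and at 476, 515 and 508 CPM with Aβ42, with overlap and a 95% interval of -0.11 to 0.11. PTPRZ1, its receptor and itself an outer radial glia gene, was at 1958, 1993 and 2095 CPM in vehicle and at 1899, 2004 and 1827 CPM with Aβ42, again with overlap (-0.08 ± 0.05, adjusted p 0.374). Of 20 receptors and partners of PTN, PDGFD and tenascin-C 17 were tested and none passed, with a median of 0.04. At an unadjusted p under 0.05, 2 were higher and 0 lower, beside 12.4% and 11.5% of all genes. Those 2 were SDC1 (0.36 ± 0.12, adjusted p 0.115, and 0.031 with the block) and PDGFA (0.37 ± 0.14, adjusted p 0.155). The negative genes with the smallest p were the integrin subunit ITGB5 (-0.32 ± 0.14, adjusted p 0.21, and 0.00632 with the block) and the receptor PDGFRA (-0.44 ± 0.22, adjusted p 0.236).

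PROM1 (8842), prominin-1 of the apical membrane, was at 5.77, 4.92 and 4.63 CPM in vehicle and at 5.97, 6.18 and 6.84 CPM with Aβ42. It did not overlap between groups (0.31 ± 0.15, adjusted p 0.228), on 76 to 114 counts a library. TTYH1, a membrane protein of progenitors, had a 95% interval of -0.19 to 0.14 and PEA15 one of -0.11 to 0.13, with overlap in both.

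**Figure D3:**
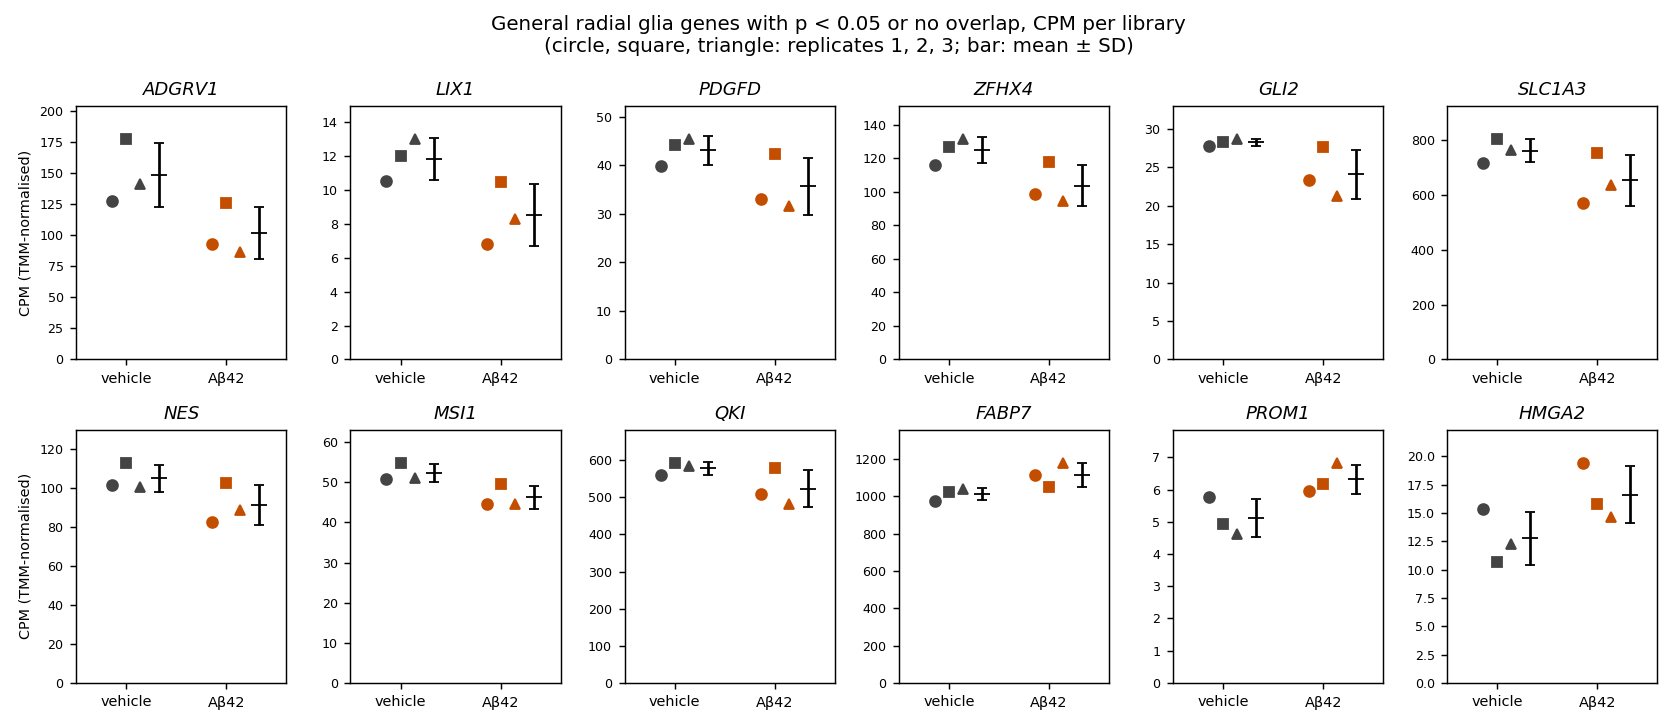
CPM per library (y axis, from 0) of the 12 general radial glia genes with an unadjusted p under 0.05 or no overlap, in vehicle (grey) and Aβ42 (orange), with mean ± SD of 3 libraries. In each of the 9 genes with a negative fold change, Aβ42 replicate 2 (orange square) is the highest Aβ42 library.

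The lower members followed a pattern over libraries that lower genes in general also showed. In all 10 members lower at an unadjusted p under 0.05, Aβ42 replicate 2 was the highest of the 3 Aβ42 libraries, and in 6 of the 10 vehicle replicate 2 was also the highest vehicle library. Among all 1586 genes lower at that level, Aβ42 replicate 2 was the highest in 1306, or 82.3%, and vehicle replicate 2 in 1000, or 63.1%. Without this library the log2 fold changes of ADGRV1, LIX1 and HOPX were -0.73, -0.65 and -0.56, and those of SLC1A3 and NES were -0.34 and -0.29. Without Aβ42 replicate 1 they were -0.48, -0.34, -0.30, -0.13 and -0.13, all closer to 0 than with all 6 libraries.

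**Figure D4:**
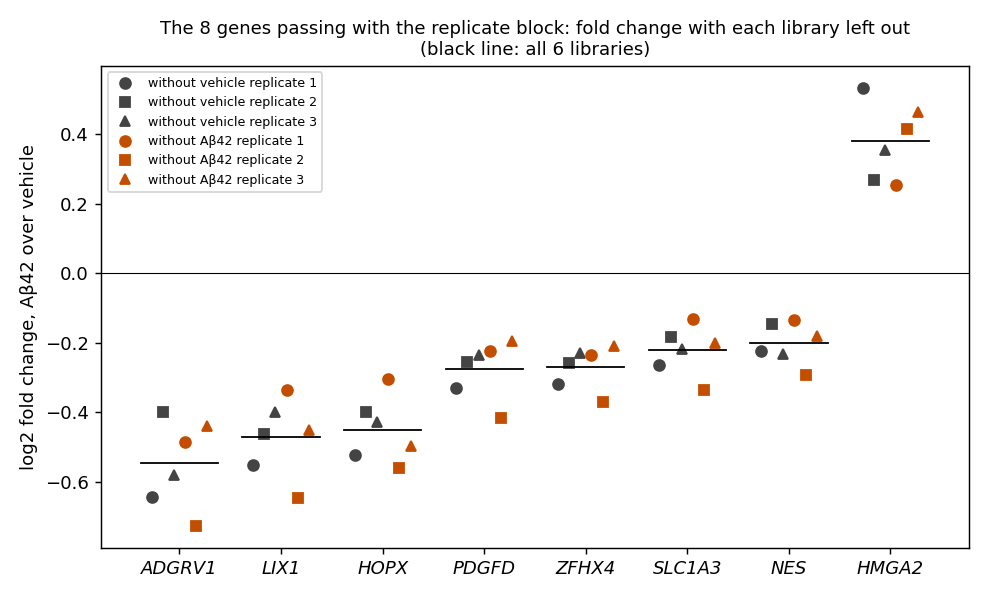
Log2 fold change (y axis) of the 8 genes that passed with the replicate block, recomputed with each of the 6 libraries left out (symbols) and with all 6 (black line). Each of the 8 keeps its sign in all 6 cases, and leaving out Aβ42 replicate 2 gives the most negative value for the 7 lower genes. The 8 were chosen on these same libraries, so a kept sign is no independent support.

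Longer genes had lower fold changes on average, as a description over genes that share libraries. Spearman's rho between the relative length implied by the deposited counts and TPM and the log2 fold change was -0.16 over 13782 genes and -0.24 over the 31 members. ADGRV1 and ZFHX4 lie above 99.7% and 99.2% of genes in that length, and HOPX above 6.48%. After the length correction, chosen after the data were seen, the log2 fold changes of ADGRV1, ZFHX4 and HOPX were -0.48, -0.21 and -0.50. With the block and that correction together 9 of 31 passed, the ninth being MSI1, beside 14.5% of all genes.

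Of 17 further outer radial glia genes, all tested, none passed over all genes, with a median of 0.07. At an unadjusted p under 0.05, 3 were higher and 0 lower, beside 12.4% and 11.5% of all genes. BMP7, a bone morphogenetic protein, was at 70.9, 66.2 and 73.2 CPM in vehicle and at 84.8, 84.9 and 88.2 CPM with Aβ42, with no overlap (0.29 ± 0.05, adjusted p 0.0684, and 0.0025 with the block). GPX3, a secreted glutathione peroxidase, was at 7.09, 5.35 and 8.29 CPM in vehicle and at 14.3, 9.74 and 14.04 CPM with Aβ42, also without overlap (0.88 ± 0.19, adjusted p 0.0731, and 0.000268 with the block). The negative genes with the smallest p were ITGB5, given above, and the Wnt modulator SFRP1 (-0.12 ± 0.06). Of 21 further ventricular or truncated radial glia genes, all tested, none passed, with 1 higher and 4 lower at an unadjusted p under 0.05 and a median of -0.02. TFAP2C, a transcription factor, was at 26.1, 28.9 and 23.4 CPM in vehicle and at 19.2, 21.8 and 18.6 CPM with Aβ42, with no overlap (-0.40 ± 0.10, adjusted p 0.0734, and 0.00343 with the block). SFRP2, a secreted Wnt modulator, had -1.05 ± 0.35 on 22 to 90 counts a library (adjusted p 0.121, and 0.00264 with the block). NR4A1, an immediate early gene, had 0.50 ± 0.15 (adjusted p 0.105, and 0.018 with the block) and HES1, a Notch target, 0.21 ± 0.10 (adjusted p 0.227).

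Of the genes of intermediate progenitors and of dividing cells none passed over all genes without the block. The median log2 fold change of intermediate progenitor genes was -0.48 (9 tested, 0 higher and 8 lower at an unadjusted p under 0.05). That of proliferation genes was -0.51 (16 tested, 0 higher and 14 lower), where the 26 general radial glia genes had -0.07 (2 higher, 9 lower). At that unadjusted level 12.4% of all genes were higher and 11.5% lower. With the block 7 of 9 and 15 of 16 passed, all lower, beside 7.05% of all genes. NEUROG2, a proneural factor on the intermediate progenitor list, had 0.04 ± 0.07 (adjusted p 0.749). The proliferation genes summed to 689 to 830 TPM in vehicle and 435 to 631 TPM in the Aβ42 group, and the intermediate progenitor genes to 438 to 487 TPM and 309 to 368 TPM. EOMES, the defining intermediate progenitor factor, was at 102, 124 and 99.4 CPM in vehicle and at 58.9, 75.7 and 49.1 CPM with Aβ42, with no overlap (-0.83 ± 0.17, adjusted p 0.0779, and 2.44e-06 with the block). Astrocyte genes, of which 11 were tested (1 higher, 3 lower), had a median of -0.52 and summed to 299.7 to 351 TPM in vehicle and 265 to 308 TPM in the Aβ42 group. None passed without the block. Of the 11, 3 had positive and 8 had negative log2 fold changes. With the block 1 passed higher and 4 passed lower, beside 7.12% and 7.05% of all genes. The genes with the smallest p were ALDH1L1 (0.33 ± 0.12, adjusted p 0.137) and ALDOC (0.90 ± 0.36, adjusted p 0.222, and 2.02e-05 with the block) among the positive ones. Among the negative ones they were S100B (-1.25 ± 0.35, adjusted p 0.0975, and 0.000941 with the block) and CD44 (-0.52 ± 0.20, adjusted p 0.148, and 0.053 with the block). SPARCL1 (-0.91 ± 0.46, adjusted p 0.313, and 0.0184 with the block) also passed lower with the block. So did GJA1 (-0.84 ± 0.49, adjusted p 0.358, and 0.00053 with the block) and APOE (-0.79 ± 0.30, adjusted p 0.17, and 0.00053 with the block). The glutamate transporter SLC1A2 had 0.01 ± 0.05, the filament protein GFAP was at 28.1 to 33.6 CPM in vehicle and 24.5 to 33.8 CPM with Aβ42, and the water channel AQP4 reached at most 2.10 CPM. Choroid plexus genes had a median of -0.57 (9 tested, 0 higher and 1 lower) and summed to 3366 to 7608 TPM in vehicle and 2849 to 6685 TPM in the Aβ42 group, highest in replicate 2 of each. With the block 4 of these 9 passed, all lower, beside 7.05% of all genes. Excitatory neuron genes had a median of -0.08 (13 tested, 0 higher and 5 lower at an unadjusted p under 0.05), and none passed without the block. With it 1 passed higher and 4 passed lower, beside 7.12% and 7.05% of all genes. The part of these cell types in the values of the 31 genes was not tested. Of 11 microglia genes, 5 (C1QA, C1QB, C1QC, TREM2 and TYROBP) were at 0 throughout, and a count of 0 allows up to 3. Only CD68 of this list passed the filter, at 41 to 47 counts a library. The 11 genes summed to 4.71 to 5.64 TPM in vehicle and 5.29 to 6.37 TPM in the Aβ42 group.

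**Figure D5:**
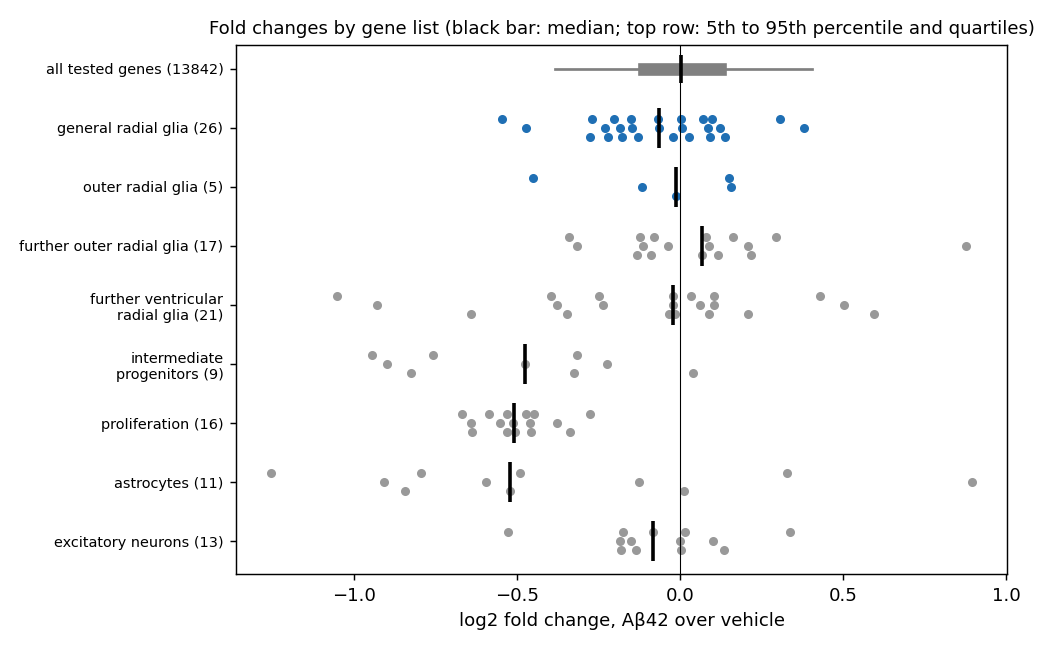
Log2 fold change of Aβ42 over vehicle (x axis) of each tested gene, by list, with the median as a black bar and the 5th to 95th percentile and quartiles of all 13842 genes on top. The general and outer radial glia genes (blue) lie around medians of -0.07 and -0.01, and intermediate progenitor and proliferation genes around -0.48 and -0.51.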

How the data were processed

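PolyA RNA of 6 organoid libraries (3 vehicle, 3 Aβ42) was sequenced, with a stranded preparation per the labels' protocols. The deposited table pairs each of 18056 genes with counts and TPM for every library. The submitters' processing notes name FastQC, STAR 2.7.11b, featureCounts 2.0.6 and GRCh38. The annotation and whether strand was used in counting are not given in the sources used here. SOX2 lies within the transcript SOX2-OT. Only 86.9% to 87.5% of the deposited counts were whole, so they were treated as estimated counts and rounded. Those of PAX6 and DACH1 were not all whole, and some of their reads may be divided with other features. The authors scaled the deposited TPM values for length and library total.

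Genes were filtered with filterByExpr (13842 kept), scaled by TMM and tested with edgeR 4.0.16 (quasi-likelihood, robust, no block; R 4.3.3), two-sided, with Benjamini-Hochberg adjustment over all genes tested and a threshold of 0.05. SE is the size of the log2 fold change over the square root of F, and 95% intervals use the fit's degrees of freedom. The test was first tested on simulated data. Alternatives were RLE and upper-quartile scaling, no filter, a stricter filter, limma-voom, limma 3.58.1 on log2(TPM + 1) and log2(TPM + 0.1), DESeq2 1.42.0, the replicate block, each library left out, and a length correction added after the data were seen. Relative length was the ratio of counts to TPM.

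Deviations from the group means, over 12187 genes averaging 50 counts or more, correlated 0.192, 0.409 and 0.135 between libraries numbered 1, 2 and 3. Each is above 0.1, so blocked p-values are printed beside those of the unblocked test where they change a call. For some genes they are also printed where the call stays the same. The unblocked test remained the main one. The block rests on the data, not on the labels. Libraries 1 and 3 also correlated across numbers (0.168 and 0.193), about as much as within them. Deviations cancel out within a group, so a high value for number 2 raises those among 1 and 3. The limit of 0.1 therefore cannot show that numbers 1 and 3 mark paired libraries. Every pair of libraries differed by more than sampling noise (chi-square per gene 3.16 to 21.2), and each was used as 1 sample.

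Values in every library are given for the 5 outer genes and for each other member with an unadjusted p under 0.05 or no overlap, and in addition for some members of known role. In each pathway list the 2 genes with the smallest p in each direction are named, except where a gene is not reported here. Members and lists were chosen with earlier results of these data known.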

Additional observations from a re-analysis of the deposited data

How the results depend on the processing

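None of the 31 genes passed with upper-quartile or RLE factors, either other filter on low counts, limma-voom, both TPM scales or the length correction (9 to 13 at an unadjusted p under 0.05). The number that passed was 2 by DESeq2, 8 with the replicate block, 9 with the replicate block and length correction, and 0 to 13 with 1 library left out (13 without Aβ42 replicate 2). Over all genes it was 360 with no filter, 814 by DESeq2, 1962 with the replicate block, 2007 with the length correction added to that block, 0 to 3224 with 1 library left out (3224 without Aβ42 replicate 2), and 0 otherwise. Members whose groups do not overlap numbered 6 to 10 under other scalings and units. With 1 library left out they numbered 10 to 17 (17 without vehicle replicate 1 or Aβ42 replicate 2), where smaller groups overlap less by construction. The share over all genes was not counted in these settings, so these numbers are not a result about the members. Both medians moved by less than 1 SD.

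Of the 31 genes 6 had another sign in some alternative. Upper-quartile scaling moved the median of all genes to 0.02 and both TPM scales moved it to -0.04, a shift common to all genes. LIFR stayed below the median of all genes under the first, and DBI and PAX6 stayed above it on the TPM scales. LIFR was at 0.002223 under upper-quartile scaling, 0.03523 with length correction, 0.03403 with block and length correction, and -0.06532 to 0.03613 with 1 library left out. PTN was at -0.04994 and -0.04999 on the TPM scales (pseudocount 1 and 0.1), -0.03475 with length correction, -0.03446 with block and length correction, and -0.02074 to 0.03897 with 1 library left out. PEA15 was at -0.04165 and -0.04169 on the TPM scales, -0.01499 with length correction, -0.01582 with block and length correction, and -0.0424 to 0.04676 with 1 library left out. PAX6 was at -0.01337 and -0.01347 on the TPM scales and -0.006868 to 0.08825 with 1 library left out. DBI was at -0.005185 and -0.005199 on the TPM scales, and TTYH1 at -0.07583 to 0.07341 with 1 library left out. The causes were not tested. The low counts of PROM1 (76 to 114 a library) and LIX1 (112 to 213) limit what can be detected in them.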
